A study of Mus musculus with 9 samples.

Results

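The mRNA levels of 10 genes that move bile acids through the hepatocyte or sense them were followed in the livers of 9 mice. They were picked by name out of the 17846 genes listed for every mouse. The members were the uptake carriers Slc10a1, Slco1a1, Slco1a4 and Slco1b2, the canalicular exporters Abcb11 and Abcc2, the basolateral exporters Abcc3 and Abcc4, the bile acid receptor FXR (Nr1h4) and its target SHP (Nr0b2). They were chosen with earlier results of these data known, and all 10 had enough counts to be tested.

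The study asked what treadmill training does in mice with NASH, a fatty liver with inflammation and injury. All mice were male, wild type and of the strain labelled C57/BL. The 3 Control mice (3, 4 and 29) ate normal chow and stayed sedentary. The 3 NASH mice (5, 19 and 20) ate the Ath diet for 20 weeks and stayed sedentary, and the 3 NASH+Exercise mice (8, 18 and 22) ate the Ath diet for 12 weeks and then trained on a treadmill for 8 weeks. The labels call this last group EXE+Ath diet, and give no total time on the diet for it. Whether the diet went on during the 8 weeks of training is not stated there. A difference in time on the diet therefore cannot be told apart from training. By the study's account the mice were 20 weeks old when training or its sedentary counterpart began. The Ath diet holds cholesterol and cholate, which is itself a bile acid, so both Ath diet groups were also fed a ligand of this system. Mice were fasted overnight before the liver was taken, and each mouse gave 1 mRNA library of 20085976 to 22495408 estimated counts.

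Bile acids return from the intestine in portal blood. The hepatocyte takes them up through the sodium-dependent carrier NTCP (Slc10a1) and the sodium-independent carriers of the Slco family, and pumps them into the bile canaliculus mainly through BSEP (Abcb11). When bile acids build up in the cell, FXR binds them and switches on Abcb11 and Nr0b2, while SHP, the product of Nr0b2, holds down bile acid synthesis and can lower Slc10a1. Abcc3 and Abcc4 send bile acids back to blood and serve as an overflow route.

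Slco1b2, Slco1a4 and Slco1a1 lie in that order on chromosome 6, with 118.8 kb between Slco1b2 and Slco1a4. On GRCm38.p6, RefSeq places Slco1b2 at chr6:141629452-141686646, Slco1a4 at chr6:141805438-141856284 and Slco1a1 at chr6:141907281-141946962, so that the 3 genes span 317.5 kb and Slco1a4 and Slco1a1 are 51.0 kb apart. Slc10a1 is at chr12:80953185-80968705, Abcb11 at chr2:69238282-69342616, Abcc2 at chr19:43782308-43838332, Abcc3 at chr11:94343295-94393017, Abcc4 at chr14:118482692-118707856, Nr1h4 at chr10:89454234-89533645 and Nr0b2 at chr4:133553376-133556686.

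FXR with its partner RXR is known to bind an inverted repeat of the hexamer AGGTCA with 1 base between the copies. RefSeq promoter windows of GRCm38.p6, which run from 250 bases before to 50 bases after a transcription start, were matched for 9 of the 10 members (all but Abcc3), in 11 windows. Both strands were searched for the inverted repeat AGGTCANTGACCT with at most 1 mismatch and for the half-site AGGTCA with none, and the half-site can lie inside the repeat. The repeat was found in 2 members, Abcb11 and Slco1b2, and in 0.0822% of all 32851 windows. The half-site was found in 6 members and in 16.3% of all windows. A match describes the letters of the window and no binding was measured. The lack of a match says nothing about sites outside the window. The 250 bases before the start are printed 5′ to 3′ for the members with the repeat and for the neighbours Slco1a1 and Slco1a4, whose ratio in the exercised mice differed from that in the other groups. They come from the plus strand for Slco1b2 and from the minus strand for the others, and capitals mark the matches.
Abcb11, chr2:69342617-69342866: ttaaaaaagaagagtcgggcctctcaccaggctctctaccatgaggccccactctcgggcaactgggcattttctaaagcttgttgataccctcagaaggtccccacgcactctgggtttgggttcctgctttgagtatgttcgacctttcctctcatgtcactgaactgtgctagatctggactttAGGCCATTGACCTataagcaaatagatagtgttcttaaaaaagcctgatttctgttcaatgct
Slco1b2, chr6:141629268-141629517: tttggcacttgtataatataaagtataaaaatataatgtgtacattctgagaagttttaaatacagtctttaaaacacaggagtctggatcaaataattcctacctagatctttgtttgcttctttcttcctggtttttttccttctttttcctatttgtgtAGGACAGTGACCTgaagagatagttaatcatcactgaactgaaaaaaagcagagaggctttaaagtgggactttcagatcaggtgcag
Slco1a1, chr6:141946963-141947212: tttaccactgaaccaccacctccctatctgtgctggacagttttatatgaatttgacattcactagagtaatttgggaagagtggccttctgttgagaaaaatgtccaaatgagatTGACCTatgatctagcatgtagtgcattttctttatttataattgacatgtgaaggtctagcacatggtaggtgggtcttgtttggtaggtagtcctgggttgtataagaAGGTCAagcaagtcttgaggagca
Slco1a4, chr6:141856221-141856470: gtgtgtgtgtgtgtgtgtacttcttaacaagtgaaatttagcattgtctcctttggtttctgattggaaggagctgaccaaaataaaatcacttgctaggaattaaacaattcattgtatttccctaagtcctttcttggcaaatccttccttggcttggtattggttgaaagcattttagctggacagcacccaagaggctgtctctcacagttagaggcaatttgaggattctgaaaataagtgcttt
With the start at position 0, the repeat lay at -63 to -51 in Abcb11 and at -88 to -76 in Slco1b2, with 1 mismatch each. The starts used for Slco1b2 and Slco1a4 lie inside the gene spans given above, so their printed bases partly overlap those spans. Slco1a1 held 2 half-sites, 1 on each strand, at -134 to -129 and at -24 to -19, whereas the window of Slco1a4 held no match to either motif.

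Levels between genes were compared in TPM, a share of all transcripts that takes gene length into account. Slc10a1 was the most abundant member in every group, with a mean of 557 TPM in Control and of 327 and 322 TPM in the NASH and NASH+Exercise groups. In Control it was followed by Slco1b2 at 214 TPM, and the ranges of these neighbours did not overlap. Nr1h4, Abcb11, Abcc2, Abcc3 and Slco1a1 followed with means from 121 down to 81.6 TPM, and each overlapped its neighbour in the order. Nr0b2 stood at 52.8 TPM, Slco1a4 at 29.9 and Abcc4 at 0.747, and the ranges of Slco1a4 and Abcc4 did not overlap those of the gene above. In NASH, Abcb11 with 173 TPM held the third place and did not overlap Abcc2 below it at 107 TPM. Nr0b2 (107 TPM in NASH) stood above Nr1h4 (90.9 TPM) there, while in Control it stood below it. In NASH+Exercise the order at the foot was Abcc3 at 44.6 TPM, Slco1a4 at 6.93 and Abcc4 at 0.617, with no overlap between these neighbours.

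**Figure D1:**
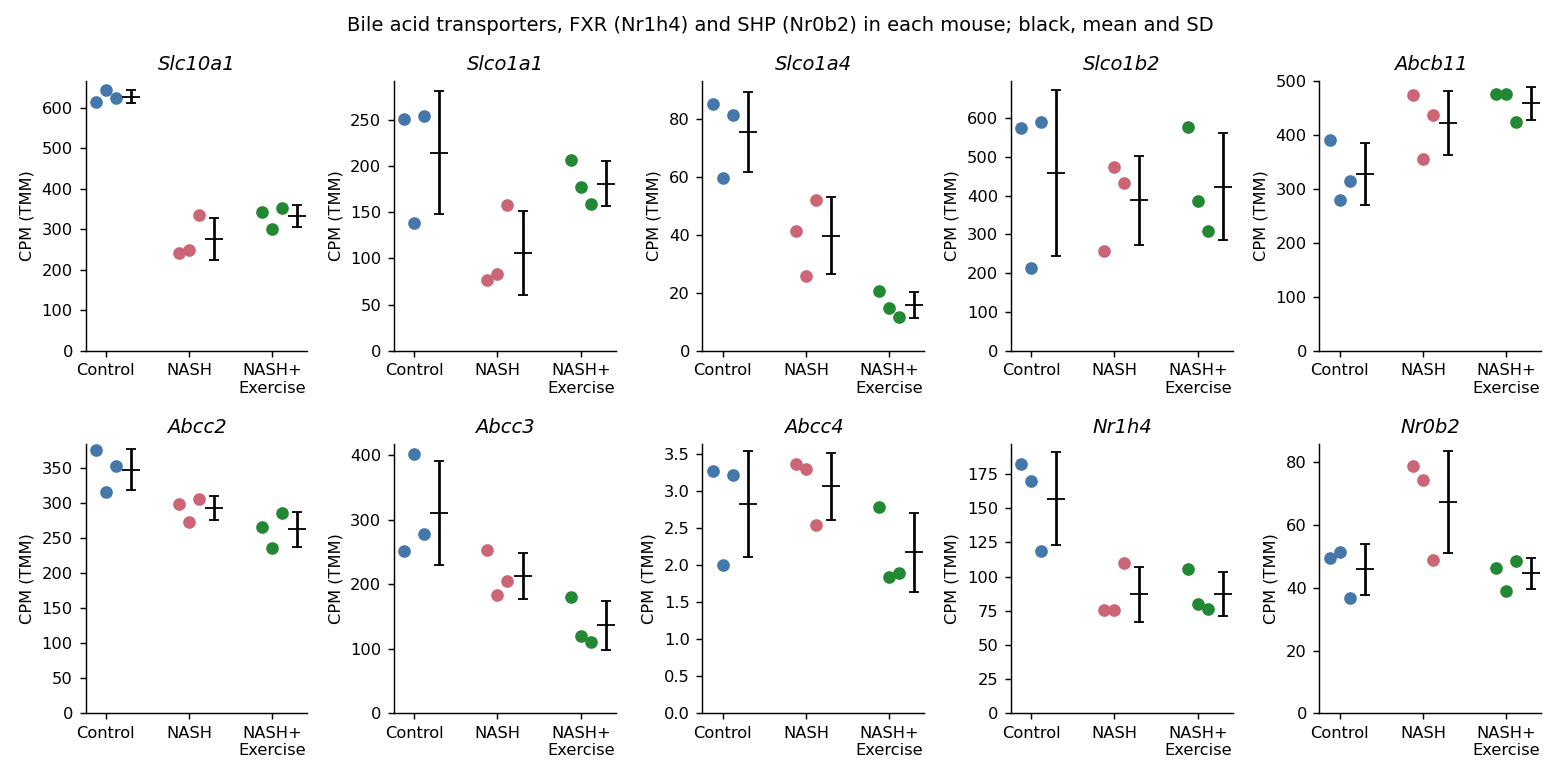
Level of each of the 10 members in every mouse, as TMM-scaled counts relative to library size (CPM, vertical axis from 0), with 1 point per mouse and a bar at the mean of the 3 mice of each group. The 3 Control points of Slc10a1 sit between 614 and 645 CPM above all points of the other groups, and the 3 NASH+Exercise points of Slco1a4 sit between 11.7 and 20.6 CPM below all others.

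Within a gene, mice were compared in CPM after TMM scaling, that is counts relative to the library's total with a TMM factor for each library, and tested with edgeR on all 9 mice. A gene was called at a Benjamini-Hochberg adjusted p under 0.05 over 13619 genes together with a log2 fold change beyond 1 in either direction. The 10 members varied unequally over the 9 mice. The highest mouse had 7.25 times the CPM of the lowest for Slco1a4, 3.66 times for Abcc3 and 3.35 times for Slco1a1, but 1.71 times for Abcb11 and 1.59 times for Abcc2.

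The comparison of NASH with Control asks how the transport system stood in the diseased liver. The uptake carriers Slc10a1 and Slco1a1 were called lower, and the other 8 members, among them Abcb11, FXR and SHP, were not called. These 2 calls of 10 members stood where 3.03% of all genes tested were called lower. Among the members 0 were called higher, where 15.3% of all genes were. Groups that did not overlap were found lower for 4 members (22.2% of all genes) and higher for 0 (27.4% of all genes). An adjusted p under 0.05, at any fold, was reached by 5 members (Slc10a1, Slco1a1, Slco1a4, Nr1h4 and Nr0b2) and by 35.6% of all genes. The median log2 fold change of the members was -0.39, beside 0.01 over all genes tested. Since whole liver was sequenced, fewer cells of a type and less RNA per cell cannot be told apart.

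Slc10a1, the main carrier of conjugated bile acids from blood, fell in NASH. It measured 614, 645 and 625 CPM in the Control mice, 242, 250 and 335 in NASH and 343, 301 and 352 in NASH+Exercise. All 6 Ath diet mice were below all Control mice, which themselves spanned a narrow range. The log2 fold change in NASH was -1.19 (SE 0.15, 95% interval -1.53 to -0.85, adjusted p = 0.000203, edgeR).

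Slco1a1 encodes an organic anion carrier that in mouse liver is higher in males. It measured 251, 138 and 255 CPM in Control, 76.1, 82.7 and 158 in NASH and 207, 177 and 159 in NASH+Exercise. The groups Control and NASH overlapped, since Control mouse 4 was low and NASH mouse 20 was high for their groups. The log2 fold change in NASH was -1.02 (SE 0.31, 95% interval -1.71 to -0.33, adjusted p = 0.0276, edgeR), which passed both thresholds narrowly. Without any 1 of Control mice 3 and 29 and NASH mice 5 and 19 the call was lost, with log2 fold changes between -0.92 and -0.84.

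Slco1a4 encodes a carrier with a broad range of substrates that is higher in females. Its levels were 85.2, 59.7 and 81.6 CPM in Control, 41.3, 25.7 and 52.1 in NASH and 20.6, 14.9 and 11.7 in NASH+Exercise. In CPM the 3 groups formed 3 separate ranges in that order. In NASH the log2 fold change of -0.93 (SE 0.27, adjusted p = 0.0234, edgeR) stopped short of the fold threshold.

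Slco1b2, the main carrier of unconjugated bile acids, was uneven within groups, with a coefficient of variation of 46.6% in Control, 29.8% in NASH and 32.7% with exercise. It stood at 576, 212 and 589 CPM in Control, 256, 474 and 433 in NASH and 577, 386 and 308 in NASH+Exercise. The ranges of all 3 groups overlapped, and the 95% interval of the log2 fold change in NASH ran from -1.13 to 0.64, which leaves room for changes of more than 2 times lower. Control mouse 4 was the lowest Control mouse for Slco1b2, Slco1a1 and Slco1a4 in both CPM and TPM.

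Within the 4 uptake genes, Slc10a1 made up 64.8% ± 10.7 (SD, n = 3) of the summed TPM in Control, 52% ± 5.35 in NASH and, on average, 53.3% in NASH+Exercise. Slco1b2 made up 22.8%, 36.5% and 33.5% in the same order. The 4 genes summed to 882 ± 221 TPM in Control, beside 635 ± 127 and 617 ± 156 TPM in the NASH and NASH+Exercise mice (SD, n = 3 each).

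Abcb11, the bile salt export pump, was not called. Its level was 391, 279 and 315 CPM in Control, 473, 356 and 436 in NASH and 476, 477 and 423 in NASH+Exercise. The NASH range overlapped Control, whereas all NASH+Exercise mice were above all Control mice. The log2 fold change was 0.36 (SE 0.16, adjusted p = 0.108) in NASH and 0.48 (SE 0.16, adjusted p = 0.0525, edgeR) in NASH+Exercise against Control.

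Abcc2 (MRP2), which exports bilirubin conjugates and divalent bile acids, gave 376, 317 and 353 CPM in Control, 300, 274 and 307 in NASH and 266, 236 and 286 in NASH+Exercise. In CPM both Ath diet groups were below Control without overlap. The difference was small, with a log2 fold change of -0.25 (SE 0.13, adjusted p = 0.163) in NASH and of -0.41 (SE 0.13, adjusted p = 0.0415, edgeR) in NASH+Exercise against Control. Of the summed TPM of the canalicular pair, Abcb11 made up 49.7 to 54.1% in Control mice, 59.7 to 63.8% in NASH mice and 62.3 to 69.6% in NASH+Exercise mice, so neither Ath diet group overlapped Control.

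Abcc3 (MRP3), the more abundant of the basolateral exporters, measured 251, 402 and 278 CPM in Control, 253, 183 and 205 in NASH and 180, 119 and 110 in NASH+Exercise. NASH mouse 5 reached just above the lowest Control mouse, while the exercised mice were below all others. Its log2 fold change in NASH was -0.54 (SE 0.23, adjusted p = 0.0943, edgeR). Abcc4 (MRP4), which is known to rise in many cholestatic livers, stayed between 1.84 and 3.37 CPM in all 9 mice, with 3.27, 2 and 3.21 in Control, 3.37, 3.3 and 2.55 in NASH and 2.79, 1.84 and 1.9 in NASH+Exercise. The 95% interval of its log2 fold change in NASH was -0.47 to 0.70. Abcc3 made up 98.6 to 99.1% of the summed TPM of the basolateral pair over the group means.

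Nr1h4 encodes FXR. It measured 182, 170 and 119 CPM in Control, 75.3, 75.6 and 110 in NASH and 106, 79.8 and 76.1 in NASH+Exercise. In CPM neither Ath diet group overlapped Control. The log2 fold change was -0.85 (SE 0.21, adjusted p = 0.0101) in NASH and -0.85 (SE 0.21, adjusted p = 0.0141, edgeR) in NASH+Exercise against Control, both short of the fold threshold.

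Nr0b2 encodes SHP, a receptor without a DNA-binding domain that represses other nuclear receptors. Its levels were 49.5, 51.2 and 36.6 CPM in Control, 78.7, 74.3 and 48.8 in NASH and 46.2, 39 and 48.5 in NASH+Exercise. NASH mice 5 and 19 were above all Control mice, and NASH mouse 20 was within the Control range. The log2 fold change in NASH was 0.56 (SE 0.19, 95% interval 0.13 to 0.98, adjusted p = 0.0454, edgeR), short of the fold threshold.

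**Figure D2:**
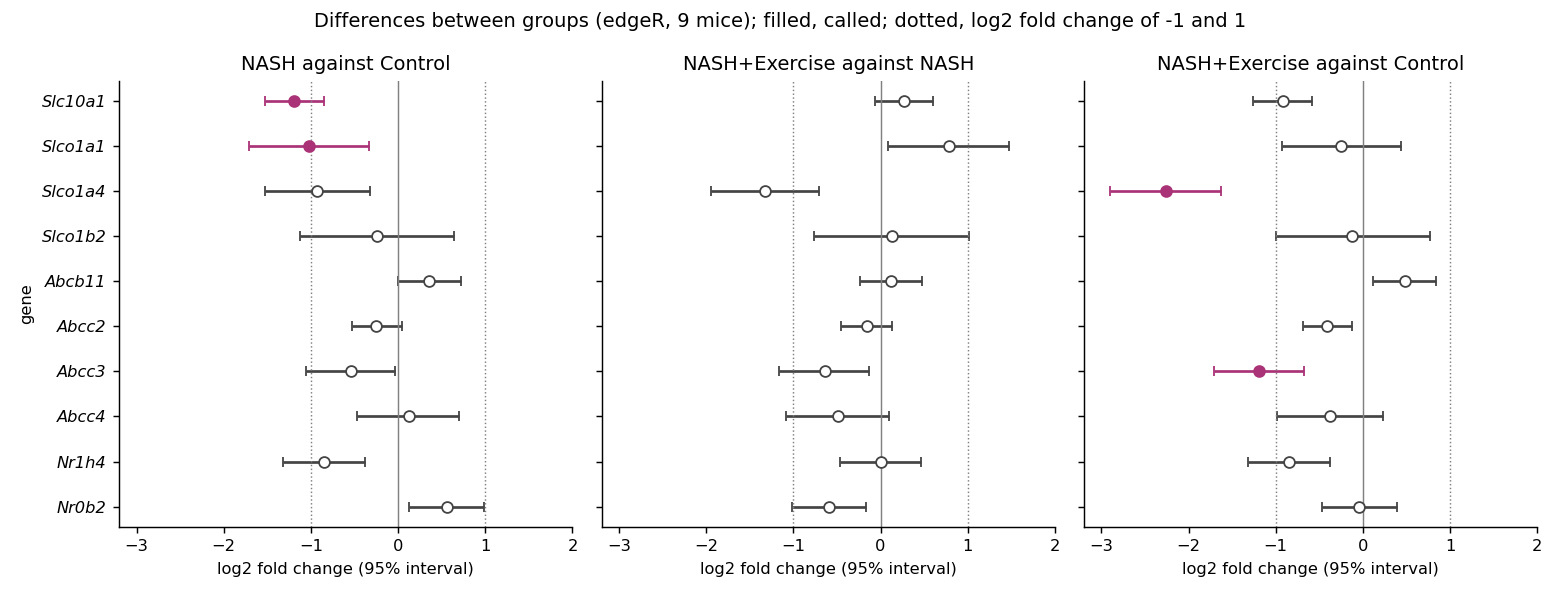
Log2 fold change of each member in the 3 comparisons (horizontal axis, edgeR on all 9 mice), with bars for the 95% interval and filled points for called genes. Slc10a1 and Slco1a1 are called lower in NASH against Control, 0 members in NASH+Exercise against NASH, and Slco1a4 and Abcc3 lower in NASH+Exercise against Control.

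These values rest on how libraries are scaled. TMM gave the Control libraries factors of 0.800 to 0.976, the NASH libraries 1.09 to 1.23 and the exercised ones 0.912 to 1.08. Over all genes the median difference of NASH from Control on the log2 scale was 0.36 when libraries were scaled by size alone, and 0.46 when they were scaled to 10 hepatocyte marker genes. Under these scalings Slc10a1 had log2 fold changes of -0.84 (adjusted p = 0.00136, edgeR) and -0.75 (adjusted p = 0.00488, edgeR), which ends its call by size, and Slco1a1 had -0.71 and -0.64, with adjusted p of 0.129 and 0.183 (edgeR). Relative to the median of all genes these are differences of like size to those under TMM. Nr1h4 moved to -0.50 (adjusted p = 0.0986, edgeR) and -0.40 (adjusted p = 0.191, edgeR), and Slco1a4 to -0.61 (adjusted p = 0.141, edgeR) and -0.54 (adjusted p = 0.202, edgeR). Nr0b2 moved to 0.93 (adjusted p = 0.00569, edgeR) and 1.04 (adjusted p = 0.00459, edgeR), the second of which is a call, and Abcb11 to 0.70 (adjusted p = 0.011, edgeR) and 0.78 (adjusted p = 0.0122, edgeR). The direction of Slco1b2 and Abcc2 turned to higher under both. In deposited TPM, Abcb11 was 159 to 188 in NASH mice and 73.1 to 121 in Control mice, and Nr0b2 was 72.8 to 126 and 48.6 to 58.3, so these genes did not overlap on that scale. Conversely, 3 genes that were apart in CPM overlapped in TPM, namely Nr1h4 (76.4 to 110 in NASH, 105 to 143 in Control), Slco1a4 (14.4 to 25.9 and 20.1 to 36.2) and Abcc2 (106 to 108 and 73.9 to 109). The directions of Slc10a1, Slco1a1, Slco1a4, Nr1h4, Abcc3, Abcb11, Abcc4 and Nr0b2 in NASH held under all 3 scalings.

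**Figure D3:**
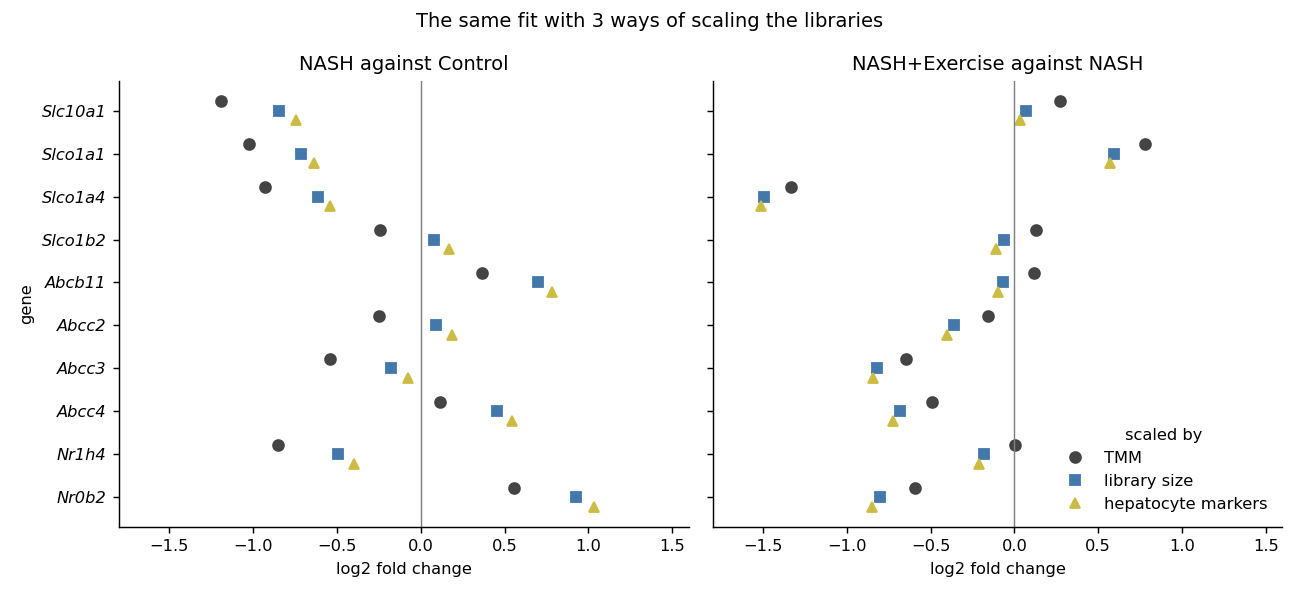
Log2 fold change of each member (horizontal axis) in NASH against Control and in NASH+Exercise against NASH under TMM scaling (circles), library size (squares) and 10 hepatocyte markers (triangles). In NASH against Control the other scalings shift all 10 members to the right of TMM, with Slc10a1 at -1.19, -0.84 and -0.75, and in NASH+Exercise against NASH they shift all 10 to the left.

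Ratios of members within a library do not depend on scaling. The 4 ratios given here were chosen after their values were seen and are a description with no test. The ratio of Abcb11 to Slc10a1, the main pump out of the hepatocyte over the main carrier into it, was 0.221, 0.148 and 0.173 in Control, 0.669, 0.497 and 0.454 in NASH and 0.481, 0.547 and 0.412 in NASH+Exercise (TPM over TPM). All 6 Ath diet mice were above all Control mice, by 1.58 and 1.42 on the log2 scale for the NASH and NASH+Exercise means. The ratio of Nr0b2 to Nr1h4 was 0.409, 0.452 and 0.462 in Control, 1.58, 1.46 and 0.661 in NASH and 0.658, 0.726 and 0.95 in NASH+Exercise. Here too the Ath diet mice lay above Control without overlap, and NASH mouse 20 lay among the exercised mice.

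The ratio of Slco1a1 to its neighbour Slco1a4 set the exercised mice apart. It was 2.81, 2.19 and 2.96 in Control, 1.74, 3.08 and 2.89 in NASH and 9.44, 11.2 and 12.8 in NASH+Exercise. Control and NASH overlapped, and all exercised mice were above both groups, by 2.07 on the log2 scale over Control. The ratio of Abcc3 to Abcc2 was 0.72, 1.37 and 0.848 in Control, 0.908, 0.719 and 0.719 in NASH and 0.728, 0.546 and 0.414 in NASH+Exercise, with overlap between neighbouring groups. The estimated counts of Slco1a1, Slco1a4 and Slc10a1 were whole numbers in 0 of 9 mice, as happens when reads are shared out between similar sequences, so the split between Slco1a1 and Slco1a4 is less certain than that of Abcb11, Abcc2, Abcc3, Nr1h4, Nr0b2 and Slco1b2, whose counts were whole in 9 of 9.

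**Figure D4:**
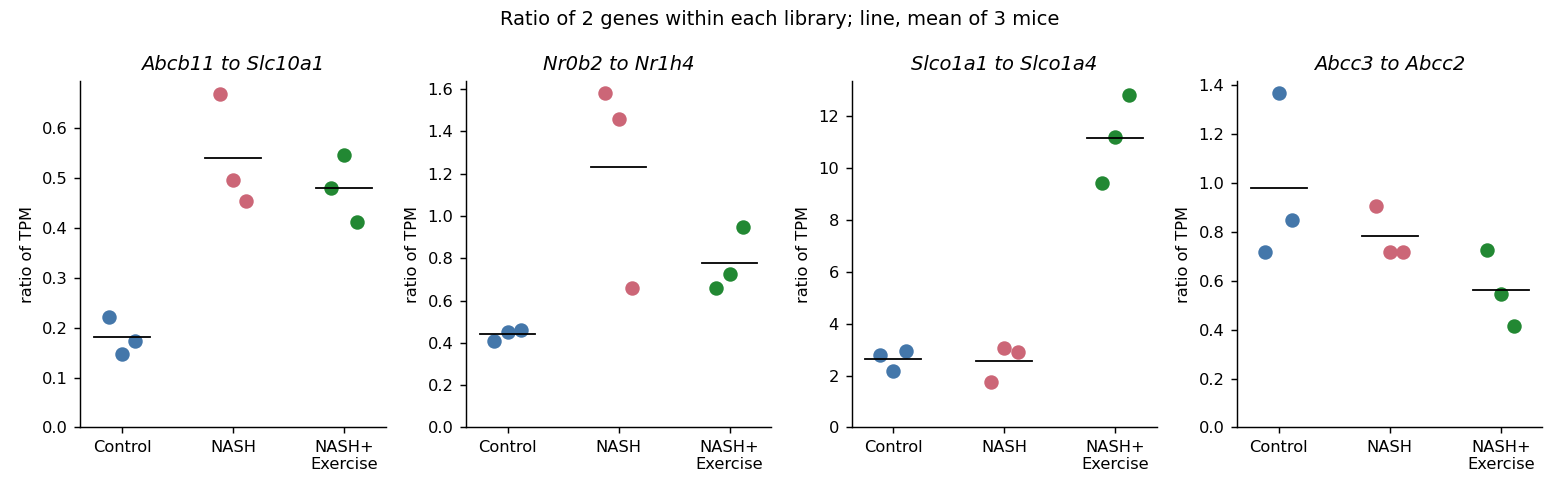
Ratio of TPM between pairs of members in every mouse (vertical axis from 0), with 1 point per mouse by group and a line at the mean of 3 mice. The Slco1a1 to Slco1a4 ratio is 9.44 to 12.8 in NASH+Exercise and 1.74 to 3.08 in the other 6 mice, and the Abcb11 to Slc10a1 ratio is 0.148 to 0.221 in Control and 0.412 to 0.669 in the 6 Ath diet mice.

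NASH+Exercise was compared with NASH to ask how the livers of the trained mice differed from those of sedentary NASH mice. Of the 10 members 0 were called by edgeR, where 0.103% of all genes were called higher and 0.0367% lower. At an unadjusted p under 0.05 there were 4 members, Slco1a4, Nr0b2, Abcc3 and Slco1a1, beside 15.3% of all genes. DESeq2 on the 6 mice called 1 member, Slco1a4 (log2 fold change -1.29, adjusted p = 0.000259), and 0.937% of its genes were called lower. Groups that did not overlap were found lower for the 3 members Slco1a4, Abcc3 and Nr0b2 (14.9% of all genes) and higher for Slco1a1 (9.16% of all genes). The median log2 fold change of the members was -0.08, beside -0.03 over all genes.

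Slco1a4 had the largest difference of the 10 between these groups, at 15.7 ± 4.47 CPM in NASH+Exercise and 39.7 ± 13.3 in NASH (SD, n = 3). Its log2 fold change was -1.33 (SE 0.28, 95% interval -1.95 to -0.71), with an unadjusted p of 0.000759 and an adjusted p of 0.116 in edgeR. Across the scalings it ran between -1.51 and -1.33, so the direction did not rest on TMM. Slco1a1 went the other way, at 181 ± 24.1 CPM against 106 ± 45.6, a log2 fold change of 0.78 (SE 0.31, 95% interval 0.09 to 1.47, adjusted p = 0.275, edgeR). The lowest exercised mouse, at 159 CPM, was barely above NASH mouse 20, at 158, and in TPM the groups overlapped (57.9 to 94.2 with exercise, 37.0 to 74.7 in NASH).

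Nr0b2 was 44.6 ± 4.98 CPM in NASH+Exercise against 67.3 ± 16.1 in NASH, a log2 fold change of -0.59 (SE 0.19, 95% interval -1.02 to -0.17, adjusted p = 0.209, edgeR). In CPM the exercised mice were within the range of Control. Abcc3 was 136 ± 37.9 against 213 ± 35.7 CPM, a log2 fold change of -0.64 (SE 0.23, 95% interval -1.16 to -0.13, adjusted p = 0.242, edgeR). For Slc10a1 the 95% interval was -0.06 to 0.60, for Nr1h4 -0.46 to 0.47 and for Abcb11 -0.24 to 0.48. Log2 differences beyond 0.60 either way lay outside all 3 intervals, which holds for TMM only. By library size and hepatocyte markers Nr1h4 stood lower, at -0.18 and -0.21, and no intervals are given for those scalings. For Slco1b2 the interval of -0.76 to 1.01 left room for larger differences either way.

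NASH+Exercise against Control asks how far trained mice given the Ath diet stood from healthy ones. It shares the Control mice with the first comparison and the exercised mice with the second. Slco1a4 and Abcc3 fell, 2 of 10 members, where 3.07% of all genes were called lower. Higher calls numbered 0 (10.4% of all genes), and 5 members had an adjusted p under 0.05 (25.1% of all genes). Groups without overlap were lower for 5 members (17.0% of all genes) and higher for 1, Abcb11 (21.5% of all genes). Slco1a4 had a log2 fold change of -2.26 (SE 0.28, 95% interval -2.90 to -1.63, adjusted p = 0.000367, edgeR), and it was called under every scaling, with every mouse left out in turn and by DESeq2. Abcc3 had -1.19 (SE 0.23, 95% interval -1.71 to -0.67, adjusted p = 0.0042, edgeR), and its call was lost without Control mouse 4 (-0.94) and when scaled to hepatocyte markers (-0.92) or to library size, where the fold fell just short (adjusted p = 0.0135, edgeR). Slc10a1 stayed lower than Control at -0.92 (SE 0.15, adjusted p = 0.00144, edgeR), short of the fold threshold. Slco1a1 and Nr0b2 were at -0.25 (95% interval -0.93 to 0.44) and -0.04 (95% interval -0.47 to 0.39), and in CPM all 3 exercised mice were within the Control range for both.

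Other uptake carriers were mostly low in liver, and 7 of 12 could be tested. In NASH 1 of the 7 was called, higher (15.3% of all genes), and 0 lower (3.03%), and their median log2 difference was 0.13. It was Slc10a2, the apical sodium-dependent carrier of ileum and bile duct epithelium, which rose to 31.5 ± 5.89 CPM from 5.9 ± 2.66 in Control (log2 fold change 2.41, adjusted p = 0.00023, edgeR) and measured 37.1 ± 7.5 in NASH+Exercise. The markers of cholangiocytes, which carry Slc10a2, summed to 32.1 to 39.5 TPM in Control mice, 147 to 603 TPM in NASH mice and 84.4 to 148 TPM in exercised mice. In NASH 5 of 7 tested were called higher (15.3% of all genes), and Krt7 and Sox9 were not called. Spp1 had the highest CPM of them, at 171 ± 148, followed by Cdh1 at 59.7 ± 18.3 (SD, n = 3). Krt19, Krt7, Epcam and Cldn4 had means between 1.19 and 5.54 CPM, so the genes of the sum were very unequal in level. In NASH+Exercise against Control all 7 were above 0, with a median of 0.96, and 2 were called higher, Cdh1 and Spp1 (10.4% of all genes). Krt7 was at 0.02 and Epcam at 0.26 there, while Slc10a2 was at 2.65. The part of cholangiocytes in the level of Slc10a2 was not tested.

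Other exporters and canalicular lipid pumps were mostly higher in NASH, with a list median of 1.77 on the log2 scale. Of the 11, 6 were called higher (15.3% of all genes) and 0 lower (3.03% of all genes). Abcg5, which with Abcg8 forms the canalicular cholesterol pump, rose to 314 ± 41.4 CPM from 72.6 ± 5.62 (log2 fold change 2.12, adjusted p = 1.43e-05, edgeR), and Abcg8 rose by 1.77 on the log2 scale (adjusted p = 0.000124, edgeR). The organic anion exporters Abcc1 and Abcc5 rose by 2.22 and 1.87 from low levels of 1.46 and 5.78 CPM. Abcb4, the phospholipid flippase of the canaliculus, was not called at 341 ± 48.8 CPM against 519 ± 35.6 (log2 fold change -0.61, adjusted p = 0.00957, edgeR), and was singled out after its value was seen. In NASH+Exercise against Control 6 of the 11 were called higher too (10.4% of all genes), and against NASH 0 were called.

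**Figure D5:**
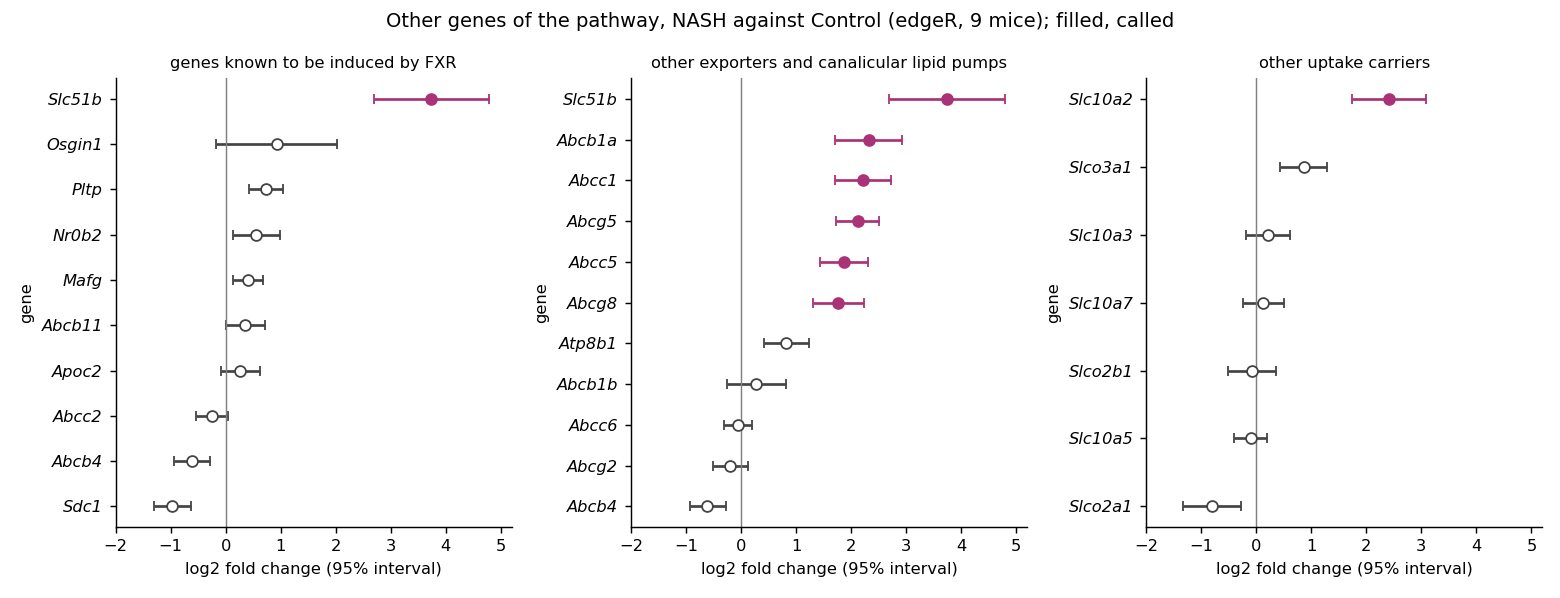
Log2 fold change in NASH against Control (horizontal axis, edgeR on all 9 mice, bars for the 95% interval, filled points called) of the tested genes of 3 lists: genes known to be induced by FXR, other exporters with canalicular lipid pumps, and other uptake carriers. In the FXR list 1 of 10 genes is called, Slc51b. The exporter list, which also holds Slc51b, has 6 of 11 called, all higher.

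Of 10 tested genes known to be induced by FXR, 7 were higher and 3 lower in NASH, 1 was called higher (15.3% of all genes) and the median log2 difference was 0.39. They include the members Nr0b2, Abcb11 and Abcc2, and Abcb4 and Slc51b are also among the other exporters. Scaled by library size or hepatocyte markers the median was 0.73 or 0.82, beside the shifts of 0.36 and 0.46 of all genes. Then 2 or 4 genes were called, all higher (Pltp beside Slc51b in both, and Nr0b2 and Osgin1 with hepatocyte markers). Over all 13619 genes tested, 2791 and 3017 were called higher under these scalings. The called gene, Slc51b, is a subunit of the basolateral bile acid exporter and had 180 counts in NASH and 10 in Control, a ratio of 13.8 with a 95% counting interval of 7.33 to 29.3. Against NASH, NASH+Exercise had 4 of the 10 higher and 6 lower, with 0 called and a median of -0.14. The partner subunit Slc51a and the intestinal hormone gene Fgf15 were not analysed here.

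Among 18 tested partners of FXR and other bile acid receptors, 1 was called higher (15.3% of all genes) and 1 lower (3.03%) in NASH, with a median of -0.30. Nr1i3, the xenobiotic receptor CAR, fell to 91.2 ± 30.7 CPM from 183 ± 16.9 (log2 fold change -1.01, adjusted p = 0.00506, edgeR). Vdr, a receptor of vitamin D and lithocholate found in non-parenchymal liver cells, had 0 counts in the 3 Control mice and 37 in NASH, at least 3.15-fold higher than a floor of 3 counts per library. The median is the same with Vdr at that bound. Scaled by library size or hepatocyte markers, Nr1i3 was not called and S1pr2 was called higher beside Vdr (2791 or 3017 of all 13619 genes). The median turned to 0.05 or 0.14, beside 0.36 or 0.46 over all genes. In NASH+Exercise against Control 4 were called lower (3.07% of all genes), Nr1i3 (-1.13), PXR (Nr1i2, -1.01), the FGF co-receptor Klb (-1.16) and Rxrg (-1.01). By library size 1 was called lower, Klb, and by hepatocyte markers 0 (318 and 280 of all 13619 genes). Under each of these scalings 1 further gene was called higher (10.4% of all genes with TMM).

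Genes known to be induced by PXR or CAR hold the members Slco1a4 and Abcc3. All 9 had log2 fold changes below 0 in NASH against Control, with 3 called and a median of -0.93. All 9 were also below 0 in NASH+Exercise against Control, with 4 called and a median of -0.84. Over all genes 3.03% and 3.07% were called lower in these comparisons. Cyp2b10, a classical CAR target, had 13 counts in NASH and 469 in Control, a ratio of 0.0212 with a 95% counting interval of 0.0112 to 0.0367, and the Control counts themselves ran from 46 to 237. Ces2a, a carboxylesterase, fell in NASH with a log2 fold change of -1.10 (adjusted p = 0.0153, edgeR), and so did Ugt1a1 at -1.01 (adjusted p = 0.00139, edgeR), which conjugates bilirubin and shares exons with other Ugt1a genes. Scaled by library size or hepatocyte markers, 8 of the 9 were lower in NASH, the median was -0.61 or -0.54, and Cyp2b10 was the 1 call, so those of Ces2a and Ugt1a1 were lost. The calls of NASH+Exercise against Control under both were 3, Cyp2b10, Cyp3a11 and Slco1a4. Over all 13619 genes, 219 and 181 were called lower in NASH under these scalings, and 318 and 280 in NASH+Exercise against Control. Between the Ath diet groups 0 of the 9 were called and 6 were higher, with a median of 0.17 (-0.02 by library size and -0.05 by hepatocyte markers), while Slco1a4 and Abcc3 were among the 3 that were lower.

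Of 11 tested genes known to be induced by the stress factor NRF2, to which Abcc3 and Abcc4 belong, 3 were called higher in NASH (4 by library size and 5 by hepatocyte markers) and the median was 0.12. With TMM 15.3% of all genes were called higher, and 2791 and 3017 of the 13619 genes with the other 2 scalings in that order. Hmox1, which degrades heme, rose to 69.2 ± 13.1 CPM from 25.1 ± 4.33 (log2 fold change 1.46, adjusted p = 0.000193, edgeR), and the glutathione transferase Gsta1 rose by 2.70. The cystine carrier Slc7a11 had 135 counts in NASH and 1 in Control, a ratio of 103 with a 95% counting interval of 18.3 to 4120. Against NASH, NASH+Exercise had 2 of the 11 higher and 9 lower, with 0 called and a median of -0.56 (1 called lower, Gstm1, by hepatocyte markers).

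The genes of bile acid synthesis, which SHP and FXR act on, are given only as far as they touch the transporters. In NASH 1 of 11 was called higher (15.3% of all genes) and 2 lower (3.03%), with a median of -0.60. Cyp8b1, the sterol 12-alpha-hydroxylase, was at 4.07 ± 2.2 CPM in NASH against 978 ± 486 in Control. Against NASH, NASH+Exercise had 1 called, Cyp7b1 of the alternative pathway, at 216 ± 91.6 CPM against 51.6 ± 11.3 (log2 fold change 2.06, adjusted p = 0.0405, edgeR). Cyp7a1, the first enzyme of the classical pathway, was uneven in all groups, at 17.2 ± 15.5 CPM in Control, 8.51 ± 7.63 CPM in NASH and 26.9 ± 14.3 CPM with exercise.

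Markers of other cells moved with the groups. Of all genes, 15.3% were called higher in NASH, beside which the counts of called markers stand. Summed macrophage markers ran from 107 to 204 TPM in Control mice, 1350 to 1760 TPM in NASH mice and 908 to 1150 TPM in exercised mice, and 8 of 8 were called higher in NASH. Neutrophil markers were 9.08 to 16.7, 100 to 129 and 56.5 to 93.7 TPM (6 of 8 called), and T cell markers 3 to 4.47, 19.5 to 28.3 and 9.92 to 15.1 (7 of 7). Stellate cell and fibroblast markers were 71.9 to 186, 230 to 384 and 145 to 214 TPM (3 of 8), endothelial markers 79.1 to 156, 163 to 219 and 118 to 168 (2 of 8) and B cell markers 2.3 to 7.49, 6.17 to 9.86 and 1.99 to 5.41 (0 of 5). Hepatocyte markers, which define the tissue, summed to 98600 to 110000 TPM in Control mice, 89500 to 109000 TPM in NASH mice and 76600 to 99000 TPM in exercised mice. Of the 10 hepatocyte markers 8 were lower in NASH, and the median log2 difference of the 10 was -0.54. Though 0 were called, 4 were lower at an adjusted p under 0.05 (edgeR). Slc10a1 (-1.19) and Slco1a1 (-1.02) lay further down than the median marker, but the lowest marker, Rbp4, was at -0.98. Between NASH+Exercise and NASH 0 markers of any of these lists were called. The part of cell composition in the members' values was not tested.

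The genes whose pattern over the 9 mice was most like that of a member were found by the root mean square difference of log2 CPM after each gene's own mean was taken off. For Slc10a1, whose own spread was 0.532 on this measure, they included Slc27a2 (0.0771), Aspa (0.103), Pon1 (0.113) and Hsd17b4 (0.121). For Slco1a1, with a spread of 0.588, they included Sult2a8 (0.241), Mup3 (0.253), Mcts2 (0.321) and Pdilt (0.323). For Nr0b2, with a spread of 0.348, they included Gp1ba (0.125), Tead1 (0.161), Cul7 (0.169) and Efnb2 (0.175). Slc10a1 had much closer neighbours for its spread than Slco1a1.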

How the data were processed

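Liver mRNA of 9 male mice was sequenced, 3 each from Control, from NASH and from NASH+Exercise, with 1 library per mouse, so p-values measure the spread between mice. The authors deposited, for each gene and mouse, an estimated count that is not normalized, together with FPKM and TPM values. The submitters' processing notes name HISAT2 2.1.0, Bowtie2 2.2.5, RSEM 1.2.8 and GRCm38.p6. Between 29.0 and 32.8% of the deposited estimated counts in a library were not whole, and they were rounded. Deposited TPM served for levels between genes, ratios and marker sums, and deposited FPKM were only compared between files (428304 values of the 3 units, of which 0 differed). A RefSeq table of GRCm38.p6 gave symbols for 17728 of 17846 identifiers, positions and promoter windows.

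edgeR 4.0.16 in R 4.3.3 was run on all 9 mice, with filterByExpr (minimum count 10, total 15), TMM, a robust quasi-likelihood fit by group and Benjamini-Hochberg adjustment over 13619 genes. Calls needed an adjusted p under 0.05 and a log2 fold change beyond 1 in size. Standard errors were the log2 fold change over the root of F. The procedure was run on simulated data with large changes in both directions. That run does not test differences near the fold threshold or the choice of scaling. Alternatives were DESeq2 1.42.0, limma 3.58.1 on log2(TPM + 0.1) and log2(TPM + 1), RLE factors, library size, 10 hepatocyte markers, no filter, 6 mice, the adjusted p alone, and each mouse left out. Counting intervals and floors cover counting error only. At this depth, precision is set by how 3 mice of a group differ.

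All members are named. Of each list at most 4 called genes with the smallest adjusted p are named per comparison, and for Slc10a1, Slco1a1 and Nr0b2 the 5 most alike genes, of which 1 for each is not reported here. The members, lists and ratios were chosen with earlier results of these data known. Slco1a5, Slc51a and Fgf15 were not analysed here.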

Additional observations from a re-analysis of the deposited data

How the results depend on the processing

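In NASH against Control 2 members were called, beside 0 with library size, 1 with hepatocyte markers (Nr0b2), 1 on the 6 mice (Slc10a1), 5 by the adjusted p alone and 1 to 4 with a mouse left out (1 without Control mouse 3, NASH mouse 5 or NASH mouse 19, and 4 without NASH mouse 20). In NASH+Exercise against Control 2 were called, beside 1 with library size, 1 with hepatocyte markers (Slco1a4 in both), 5 by the adjusted p alone and 1 to 2 with a mouse left out. In NASH+Exercise against NASH 0 were called, beside 1 by DESeq2 (Slco1a4), and limma on log2(TPM + 1) called Slco1a4 too (-1.46, adjusted p = 0.0463). Over all genes the calls numbered 2494 (4846 by the adjusted p alone), 19 (204 by DESeq2, 0 to 34 with a mouse left out) and 1836 (3423 by the adjusted p alone) for NASH against Control, NASH+Exercise against NASH and NASH+Exercise against Control. In NASH against Control 2082 genes were called higher and 412 lower with TMM, 2791 and 219 with library size, and 3017 and 181 with hepatocyte markers. Directions turned for small differences that were not called, given as log2 fold changes for library size, hepatocyte markers and TPM with either pseudocount. In NASH against Control they were 0.09, 0.18 and 0.19 for Abcc2 and 0.08, 0.17 and 0.28 for Slco1b2. In NASH+Exercise against NASH they were -0.07, -0.10 and -0.18 for Abcb11, -0.18, -0.21 and -0.28 for Nr1h4, -0.06, -0.11 and -0.17 for Slco1b2, and -0.02 with TPM for Slc10a1. In NASH+Exercise against Control they were 0.12, 0.18 and 0.10 for Nr0b2 and 0.01, 0.06 and 0.11 for Slco1b2. With a mouse left out, Abcc4 ran from -0.09 to 0.23 in NASH against Control, Nr1h4 from -0.15 to 0.21 and Slco1b2 from -0.16 to 0.32 in NASH+Exercise against NASH, and Nr0b2 from -0.20 to 0.07 and Slco1b2 from -0.44 to 0.09 in NASH+Exercise against Control. The cause of these changes was not tested. No paired analysis was possible because no replicate number occurs in more than 1 group. Abcc4, at 1.84 to 3.37 CPM, is the member whose precision depth limits most.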
